A study of Mus musculus with 12 samples.

Results

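The Hox genes encode homeodomain transcription factors that assign position along the head-to-tail axis of the embryo and along the limbs, and they were described here in mouse embryonic fibroblasts. Members were all symbols of the deposited count table that begin with Hoxa, Hoxb, Hoxc or Hoxd followed by digits only. This gave 39 genes of 23366 symbols: 11 in the Hoxa cluster, 10 in Hoxb, 9 in Hoxc and 9 in Hoxd. In the mouse these clusters lie on chromosomes 6, 11, 15 and 2. Within a cluster, genes carry a paralog number that counts from the 3′ end, and genes of the same number in different clusters are the closest relatives.

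As background, low-numbered Hox genes are active from the hindbrain and neck onward, and high-numbered genes towards the tail. In the limb bud the genes of the 5′ ends of Hoxa and Hoxd mark progressively more distal segments, with the paralogs numbered 13 in the hand and foot plate. Cultured fibroblasts keep much of the Hox pattern of the body site they came from. Trithorax-type complexes that methylate histone H3 lysine 4 hold active Hox genes open, and Polycomb complexes hold silent ones closed.

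RNA was sequenced from C57BL/6 embryonic fibroblasts at passages 3 to 5, with 2 libraries in each of 4 groups. Wild-type (WT) cells and Carm1 knockout (KO) cells were each sampled in rich medium with 10% serum (0 h) or following 18 h in medium lacking glucose, with 10% dialyzed serum. Carm1 encodes an arginine methyltransferase of histone H3 and other proteins. The labels name no embryo, body site, sex or knockout allele for the cultures, and separate cultures for the replicates are not stated, so p-values reflect the variation of these libraries, part of which may be technical. How long the rich-medium cells had been cultured is likewise not given, so medium and time in culture cannot be told apart.

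The libraries held between 8447016 and 28155438 counts over genes. Levels are given as CPM, counts scaled to a common library size, and 3 counts equal 0.369 CPM in the smallest and 0.104 CPM in the largest library. Carm1 stood between 164 and 207 CPM in the WT libraries and between 48.1 and 70.8 CPM in the KO libraries. Xist, the RNA of the inactive X chromosome of female cells, had 18657 to 23751 counts in WT libraries and 0 to 6 in KO libraries. The genotypes therefore differed at a sex-linked gene as well as at Carm1. Of 10 fibroblast markers, 10 reached 1 CPM in both KO groups and 9 in both WT groups, the exception being Thy1, at 0.130 and 0.114 CPM in WT rich and starved cells. The KO rich replicates lay farther apart than the others (SD of the log2 ratio across genes 0.734, against 0.120 to 0.133). For the 14 Hox genes at 1 CPM or more in that group the SD was 0.556. With 0.5 CPM added to each level, 1 of them, Hoxb6, differed more than 2-fold between its replicates. Without that addition Hoxa6 did so too, at 1.35 and 3.06 CPM.

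CPM were computed on library sizes scaled by the trimmed mean of M values (TMM). They are not corrected for transcript length, so they were compared mainly between libraries for a gene. Length does enter the 1 CPM cut-off, the sums and shares over genes, and the choice of the highest member per cluster. Changes are given on the log2 scale ± SE, tested with edgeR's quasi-likelihood test in 13882 genes with p-values adjusted by Benjamini-Hochberg, and a change was called at an adjusted p under 0.05. Of the 39 members, 19 passed the filter on low counts and were tested. Of these, 10 had at most 3 counts over the 4 libraries of a genotype and passed through the other genotype alone. Their genotype difference follows from that and is given as a description, and Hoxa2 to Hoxa10 had counts in both genotypes.

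Each genotype had its own set of Hox genes. Body site and embryo are not given and Xist also differed, so Carm1 genotype and origin of the cultures cannot be told apart. At a mean of 1 CPM or more, 17 of 39 members were detected in at least 1 group: all 11 Hoxa genes, 4 Hoxb genes, 1 Hoxc gene and 1 Hoxd gene. Only 6 of them, all Hoxa genes, were detected in all 4 groups. In WT cells, Hoxa genes and Hoxd13 were present and the Hoxb and Hoxc clusters were at or near 0. In KO cells, Hoxa2 to Hoxa10, Hoxb2, Hoxb3, Hoxb4, Hoxb6 and Hoxc6 were present in at least 1 medium, and Hoxa11, Hoxa13 and Hoxd13 had 0 counts in all 4 libraries.

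As a share of all Hox counts, paralogs 9 to 13 held 78.7% and 79.5% in the WT rich libraries and 68.1% and 75.3% in the WT starved libraries. In the KO they held 13.1% and 11.3% in rich medium and 13.1% and 11.7% after starvation. The ranges of the genotypes do not overlap, and the shares are sums of counts that long transcripts weigh on. Paralogs 1 to 4 held 7.23% to 22.7% in the WT libraries and 59.7% to 68.0% in the KO libraries. The summed Hox level was lower in starved than in rich libraries of either genotype: 149 and 144 CPM against 81.3 and 84.5 CPM in WT cells, and 128 and 138 CPM against 77.4 and 79.7 CPM in KO cells.

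Of the 39 members, 9 had 0 counts in all 8 libraries: Hoxb1, Hoxc9, Hoxc11, Hoxd3, Hoxd4, Hoxd9, Hoxd10, Hoxd11 and Hoxd12. A further 11 had counts but did not pass the filter. Hoxb7, Hoxc8, Hoxc10, Hoxc12, Hoxc13, Hoxd1 and Hoxd8 had 2 to 4 counts in all. Hoxb8, Hoxb9, Hoxb13 and Hoxc4 had 15 to 30 counts in all and no library above 0.649 CPM. Hoxb8 and Hoxc4 had counts in each KO library and 0 in each WT library, and the 26 counts of Hoxb13 were all in KO libraries. Hoxb9 had 12 of its 30 counts in WT libraries. The Hoxd cluster thus showed 1 gene at its 5′ end, Hoxd13, beside 8 genes with at most 2 counts each.

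Of the genes listed in WT cells alone, Hoxa11 shapes the middle segments of the limb, and Hoxa13 and Hoxd13 the hand and foot. Hoxa11 stood at 39.8 and 39.7 CPM in the WT rich libraries, at 9.05 and 10.7 CPM in the WT starved libraries, and at 0 counts in all 4 KO libraries. Against the 3 counts per group that a count of 0 allows, it was at least 393-fold higher in WT than in KO cells in rich medium and at least 159.8-fold higher after starvation. Hoxd13 stood at 12.5 and 11.9 CPM in the WT rich libraries, at 7.41 and 9.11 CPM in the WT starved libraries, and at 0 counts in the KO libraries, at least 120.4-fold and 134-fold higher in WT cells. Every WT library was far above the KO libraries for both genes. Hoxa13 stood at 2.60 and 2.64 CPM in WT rich and 0.837 and 0.831 CPM in WT starved libraries. It again had 0 counts in the KO (at least 26.0-fold and 13.4-fold higher in WT). These bounds, like the intervals below, cover counting error only.

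Their promoters are shown beside those of Hoxb4, the tested gene listed in KO cells alone for which a sequence was at hand, and of Hoxa2, a gene higher in the KO, so that members of either pattern can be compared. Each is the 250 bases before the gene's start, 5′ to 3′ on the gene's strand, from RefSeq on build GRCm38.p6, whereas the counts were made on mm9. Windows were at hand for 22 of 39 members. Capitals mark matches on either strand to TGATTNAT, a joint site of PBX and HOX proteins, TTTACGA, a site preferred by posterior HOX proteins, CCAAT and TATAAA.
Hoxa11 promoter, chr6:52245811-52246060, minus strand: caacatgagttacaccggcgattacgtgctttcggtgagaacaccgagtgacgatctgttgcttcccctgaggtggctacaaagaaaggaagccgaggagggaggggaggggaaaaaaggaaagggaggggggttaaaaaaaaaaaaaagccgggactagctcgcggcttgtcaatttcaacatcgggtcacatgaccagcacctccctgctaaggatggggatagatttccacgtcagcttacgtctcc
Hoxa13 promoter, chr6:52260881-52261130, minus strand: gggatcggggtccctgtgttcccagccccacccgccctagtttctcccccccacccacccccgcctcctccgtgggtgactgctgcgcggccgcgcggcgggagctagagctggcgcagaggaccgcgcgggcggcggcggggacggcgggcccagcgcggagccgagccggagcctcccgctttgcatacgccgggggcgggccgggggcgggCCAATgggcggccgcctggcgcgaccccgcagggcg
Hoxd13 promoter, chr2:74667975-74668224, plus strand: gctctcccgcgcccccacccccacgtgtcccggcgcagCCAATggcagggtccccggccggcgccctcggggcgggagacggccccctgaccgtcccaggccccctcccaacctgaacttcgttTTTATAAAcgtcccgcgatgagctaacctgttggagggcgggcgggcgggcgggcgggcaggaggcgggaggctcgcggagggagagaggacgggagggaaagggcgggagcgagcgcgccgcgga
Hoxb4 promoter, chr11:96318017-96318266, plus strand: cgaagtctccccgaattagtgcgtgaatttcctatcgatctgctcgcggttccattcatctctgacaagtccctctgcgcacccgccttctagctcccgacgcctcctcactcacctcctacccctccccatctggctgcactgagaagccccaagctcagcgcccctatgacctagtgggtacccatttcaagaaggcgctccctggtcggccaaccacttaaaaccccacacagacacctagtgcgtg
Hoxa2 promoter, chr6:52164832-52165081, minus strand: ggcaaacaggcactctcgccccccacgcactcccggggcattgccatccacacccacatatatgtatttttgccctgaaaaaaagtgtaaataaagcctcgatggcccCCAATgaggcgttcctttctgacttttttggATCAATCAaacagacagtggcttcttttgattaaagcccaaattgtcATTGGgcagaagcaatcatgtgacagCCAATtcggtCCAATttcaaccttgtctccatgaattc
The 3 promoters of genes listed in WT cells alone held no TGATTNAT or TTTACGA, which were found in 2.82% and 0.478% of 32851 windows of this length over all genes. Hoxa13 and Hoxd13 each held a CCAAT box (33.8% of all windows), and Hoxd13 held overlapping TATAAA matches on both strands (12.4% of all windows). The Hoxa2 window held 1 TGATTNAT match and 4 CCAAT boxes. The Hoxa11 and Hoxb4 windows held none of these motifs. CpG dinucleotides numbered 35 in the Hoxa13, 31 in the Hoxd13, 14 in the Hoxb4, 13 in the Hoxa11 and 6 in the Hoxa2 window, beside a median of 6 over all windows. The Hoxa13 and Hoxd13 windows thus had more CpG than 97.0% and 94.8% of all windows. The 24 Hox windows at hand had a median of 13 CpG, from 2 to 35. A match is a description of letters and not a bound site.

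Of the genes listed in KO cells alone, Hoxb2, Hoxb3 and Hoxb4 pattern the hindbrain and neck. Hoxb3 stood at 17.4 and 17.6 CPM in the KO rich libraries and at 13.4 and 14.4 CPM in the KO starved libraries, against 2 counts in 1 of 4 WT libraries and 0 in the others. In rich medium the ratio of KO to WT was 434 (exact 95% interval 119.6 to 3594), and after starvation it was at least 250.2-fold higher in KO cells. Hoxb2 stood at 6.89 and 13.3 CPM in KO rich and 8.78 and 9.94 CPM in KO starved libraries, with 0 counts in WT cells (at least 190.3-fold and 168-fold higher in the KO). The KO rich replicates of Hoxb2 lay on either side of both starved libraries.

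Hoxb4 stood at 5.05 and 9.65 CPM in the KO rich libraries and at 4.21 and 3.10 CPM in the KO starved libraries, at least 139-fold and 66.1-fold higher than in WT cells, where it had 0 counts. Hoxb5 (0.615 to 1.25 CPM) and Hoxb6 (0.738 to 2.18 CPM) were low in the 4 KO libraries and had 0 and 2 counts over the 4 WT libraries. From Hoxb7 to Hoxb13 no gene of the cluster exceeded 0.649 CPM in any library. In the Hoxb cluster, mean levels of 1 CPM or more in KO cells were thus those of Hoxb2, Hoxb3, Hoxb4 and Hoxb6. Hoxb1, at the 3′ end itself, had 0 counts.

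Hoxc6, a gene of the chest level, stood at 5.29 and 4.68 CPM in KO rich and 1.97 and 2.32 CPM in KO starved libraries. With 0 counts in WT cells it was at least 80.1-fold and 38.5-fold higher in the KO. Its neighbour Hoxc5 reached 0.401 to 0.696 CPM in KO libraries. No other Hoxc gene exceeded 0.246 CPM. Transcripts of Hoxc4, Hoxc5 and Hoxc6, like those of Hoxb3 and Hoxb4, overlap along the genome, and counts of such neighbours may share reads.

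**Figure D1:**
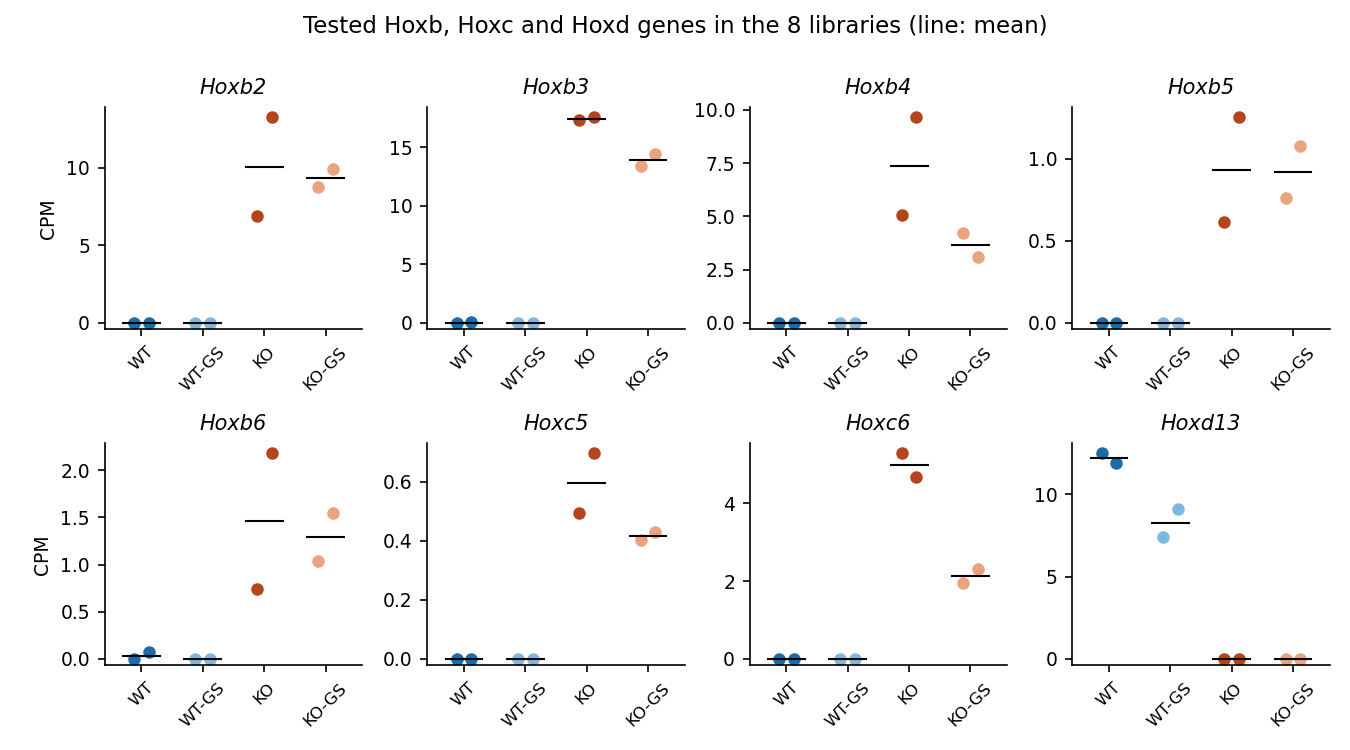
CPM (linear axis) of the 8 tested Hoxb, Hoxc and Hoxd genes in each library; the left and right points of a group are replicates 1 and 2, and the line is their mean. The Hoxb and Hoxc genes are at or near 0 in the WT groups, and Hoxd13 is at 0 in the KO groups.

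Among the members with counts in both genotypes, 4 were higher in KO than in WT cells in rich medium (Hoxa2, Hoxa3, Hoxa4 and Hoxa5) and 2 were lower (Hoxa9 and Hoxa10). Over all genes tested, 44% were called in this comparison, 23.4% higher and 20.6% lower. Over all 19 tested members the counts were 11 higher and 5 lower, of which 10 follow from counts in 1 genotype alone. From Hoxa2 to Hoxa10, the higher genes lay towards the 3′ end and the lower genes towards the 5′ end.

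Hoxa2, the most anterior Hox gene of the hindbrain, stood at 0.836 and 1.14 CPM in the WT rich libraries and at 15.9 and 11.1 CPM in the KO rich libraries (3.73 ± 0.29, adjusted p = 0.000101). Hoxa3, which patterns the throat organs and neck, stood at 4.51 and 3.46 CPM in WT and 21.3 and 18.4 CPM in KO libraries (2.32 ± 0.25, adjusted p = 0.000399). The KO libraries of both genes lay above the WT libraries. Hoxa4 stood at 2.70 and 2.07 CPM in WT and 10.3 and 7.42 CPM in KO libraries (1.88 ± 0.35, adjusted p = 0.00467). Hoxa5, needed for lung and neck development, stood at 6.04 and 5.56 CPM in WT and 8.24 and 11.04 CPM in KO libraries (0.75 ± 0.22, adjusted p = 0.0314). The call of Hoxa4 was lost without WT replicate 2 (adjusted p = 0.0508). That of Hoxa5 was lost under 11 of 18 alternatives (adjusted p from 0.000181 to 0.172 over them), among them leaving out any of 7 libraries in turn.

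Hoxa6 and Hoxa7 differed by 0.35 ± 0.48 and 0.38 ± 0.19 (adjusted p = 0.581 and 0.152), and without KO replicate 1 Hoxa7 was called higher in the KO (0.50, adjusted p = 0.00822). Further along the cluster the sign turned. Hoxa9, a gene of the trunk and upper limb, stood at 21.5 and 21.7 CPM in WT and 9.84 and 7.10 CPM in KO libraries (-1.37 ± 0.20, adjusted p = 0.00166). Hoxa10, a gene of the lower trunk and upper hindlimb, stood at 40.8 and 38.8 CPM in WT and 6.52 and 7.65 CPM in KO libraries (-2.48 ± 0.19, adjusted p = 8.63e-05). From Hoxa2 to Hoxa10 the genotype difference thus went from positive to negative along the cluster, with Hoxa11 and Hoxa13, at 0 in the KO, beyond it.

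After starvation Hoxa2, Hoxa4 and Hoxa7 were higher in KO cells, and Hoxa9 and Hoxa10 were lower. Of the 9 members with counts in both genotypes, 4 were called higher and 2 lower, beside 54.6% of all genes called, 27.8% higher and 26.8% lower. Over all 19 tested members the counts were again 11 higher and 5 lower, of which 10 follow from counts in 1 genotype alone. Hoxa9 stood at 19.8 and 20.7 CPM in WT starved and 5.09 and 4.52 CPM in KO starved libraries (-2.07 ± 0.20, adjusted p = 0.000175). Hoxa10 stood at 17.9 and 22.1 CPM and at 4.49 and 4.26 CPM (-2.19 ± 0.19, adjusted p = 9.21e-05). Both were lower in the KO in either medium, and no KO library reached a WT library. Hoxa2 and Hoxa4 were higher in the KO (1.68 ± 0.27 and 2.03 ± 0.39, adjusted p = 0.00183 and 0.00396), as was Hoxa7 (0.85 ± 0.20, adjusted p = 0.00994).

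The call of Hoxa7 was lost without WT starved replicate 2 (adjusted p = 0.0756) or KO starved replicate 2 (adjusted p = 0.0651). Hoxa5 differed by 0.65 ± 0.24 (adjusted p = 0.0527), and by 0.65 without either KO rich library. It was called with RLE size factors, a stricter filter and DESeq2 (adjusted p = 0.0425, 0.0418 and 0.0482). It was also called with limma-voom with library quality weights and in a fit of the starved libraries alone (adjusted p = 0.0102 and 0.0155). It was not called with limma-voom without weights, a replicate block, total-count scaling or no filter. Hoxa3 differed by -0.29 ± 0.24 (adjusted p = 0.343), where in rich medium it had been higher in the KO.

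**Figure D2:**
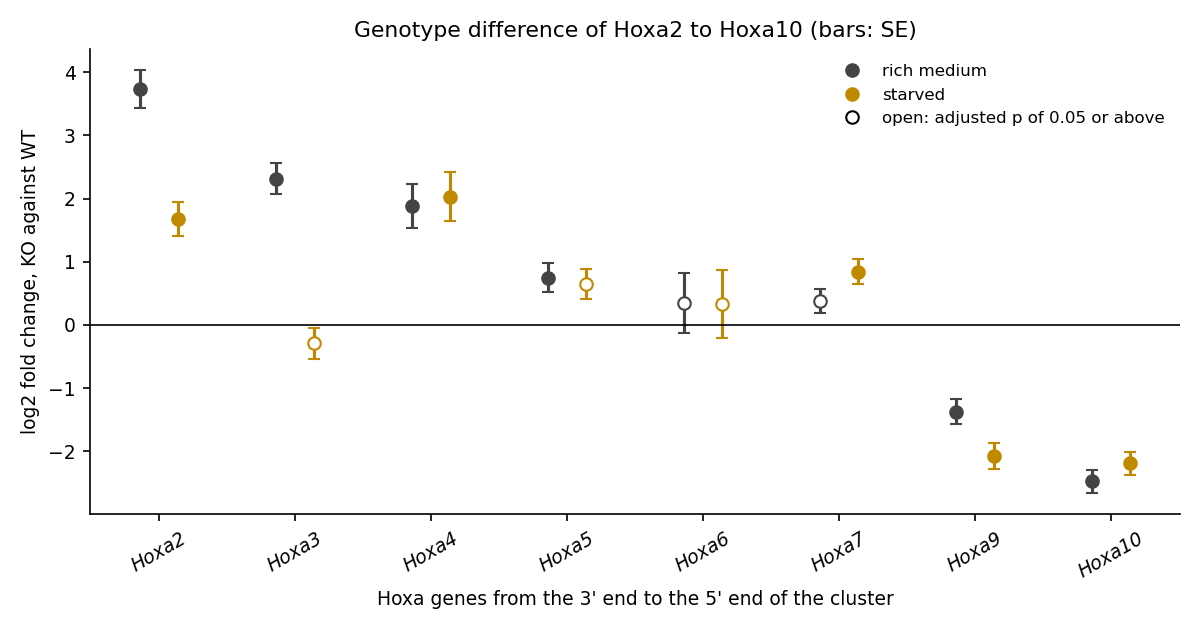
Log2 fold change (± SE) of KO against WT for Hoxa2 to Hoxa10 in rich medium and after starvation, in the order of the cluster; open points did not pass the adjusted p threshold. Hoxa2 to Hoxa4 lie above 0 in rich medium, Hoxa9 and Hoxa10 lie below 0 in both media, and Hoxa11 and Hoxa13 are left out because they had 0 counts in KO cells.

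Markers of other cell types were listed beside these differences. Endothelial markers (5 genes) summed to 2.09 to 5.02 CPM in the WT libraries and to 132 to 245 CPM in the KO libraries, nearly all of it Cdh5 (140 CPM in KO rich, 239 CPM in KO starved cells), with Tie1 at 0 in every group. Another gene of that list, Kdr, went the other way, at 1.80 and 3.98 CPM in WT rich and starved cells and 0 and 0.0831 CPM in the KO groups. In rich medium 2 of the 5 endothelial markers were called higher and 1 lower in the KO. Chondrocyte markers (5 genes) summed to 3.39 to 10.2 CPM in WT and 106.2 to 148 CPM in KO libraries through Sox9 (115 and 144 CPM in the KO groups), with Matn1 and Col9a1 at 0 counts. Both sums moved with genotype. The cartilage collagen Col2a1 went the other way from Sox9, at 1.27 and 0.854 CPM in WT rich and starved cells. In the KO groups it stood at 0.439 and 0.292 CPM (-1.91 ± 0.66 in rich medium, edgeR adjusted p = 0.0502). Neural markers (8 genes) summed to 126 to 153 CPM in WT and 9.08 to 12.8 CPM in KO libraries through Stmn2, with Sox1, Sox3, Dcx and Neurog2 at 0 in every group. Neural crest markers (5 genes) summed to 8.17 to 20.8 CPM in WT and 1.62 to 3.18 CPM in KO libraries, mostly as Erbb3 in WT cells. Leukocyte markers (5 genes) summed to 2.14 to 5.30 CPM in WT and 7.82 to 9.51 CPM in KO libraries. Most of the WT sum was Cd68, at 2.25 and 5.04 CPM in WT rich and starved cells. In the KO groups Cd68 stood at 1.60 and 1.48 CPM. Of the 5 leukocyte markers, 3 were called higher in the KO in rich medium, beside 23.4% of all genes. After starvation 4 were called higher and 1, Cd68, lower, beside 27.8% and 26.8% of all genes. Skeletal muscle markers (5 genes) summed to at most 0.208 CPM and epithelial markers (5 genes) to at most 3.74 CPM in any library. The part of these cells in the Hox differences was not tested. In bulk RNA, fewer cells with a Hox gene active and less Hox RNA per cell cannot be told apart.

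After starvation most Hoxa genes were lower in both genotypes. In WT cells 6 of 11 Hoxa members fell, beside 32.9% of all genes tested that were called, 14.8% higher and 18% lower. In KO cells, where 9 Hoxa genes had counts, 7 fell, beside 18.2% of all genes called, 8.44% higher and 9.78% lower.

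**Figure D3:**
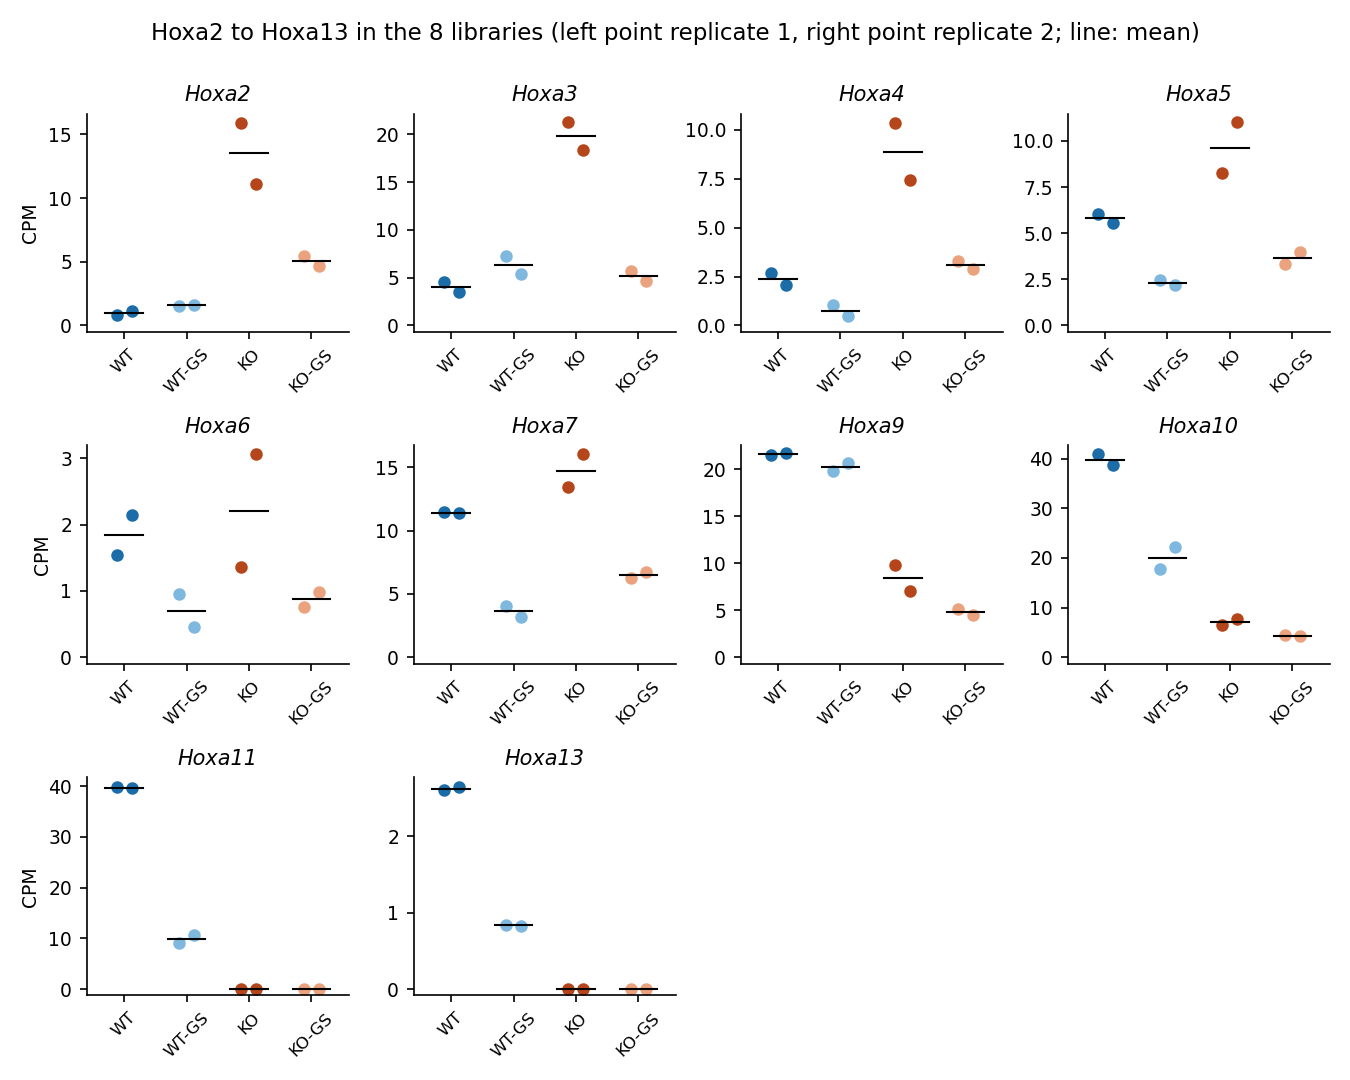
CPM (linear axis) of Hoxa2 to Hoxa13 in each library; the left and right points of a group are replicates 1 and 2, and the line is their mean. Hoxa4, Hoxa5, Hoxa7 and Hoxa10 are lower in the starved group of each genotype.

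Hoxa4, Hoxa5 and Hoxa7 fell in both genotypes. Hoxa7 went from 11.5 and 11.4 to 4.03 and 3.22 CPM in WT cells (-1.66 ± 0.20, adjusted p = 0.00145) and from 13.4 and 16.1 to 6.26 and 6.76 CPM in KO cells (-1.19 ± 0.20, adjusted p = 0.00902). Hoxa5 went from 6.04 and 5.56 to 2.47 and 2.18 CPM in WT cells (-1.32 ± 0.23, adjusted p = 0.00612) and from 8.24 and 11.04 to 3.33 and 3.96 CPM in KO cells (-1.42 ± 0.23, adjusted p = 0.00854). Rich and starved libraries did not overlap for either gene. Hoxa4 changed by -1.65 ± 0.40 in WT cells, from 2.70 and 2.07 to 1.04 and 0.485 CPM, and by -1.50 ± 0.34 in KO cells, from 10.3 and 7.42 to 3.29 and 2.88 CPM (adjusted p = 0.0185 and 0.0258). The WT call of Hoxa4 was lost without WT replicate 1 or 2 or WT starved replicate 2 (adjusted p from 0.0627 to 0.115), and that of Hoxa5 without WT replicate 1 or WT starved replicate 2 (adjusted p = 0.0517 and 0.0556). In KO cells the calls of Hoxa4, Hoxa5 and Hoxa7 were each lost without either KO starved library (adjusted p from 0.0704 to 0.178), and that of Hoxa4 also without either WT rich library (adjusted p = 0.0606 and 0.0602). Hoxa6 moved by similar amounts at low levels without passing, by -1.40 ± 0.51 in WT and -1.42 ± 0.51 in KO cells (adjusted p = 0.0723 and 0.0978). In WT cells it was called with limma-voom with library quality weights and in a fit of the WT libraries alone (adjusted p = 0.00190 and 0.00434). It was not called there with DESeq2 or limma-voom without weights. It changed by -1.42 in WT cells without either KO rich library, and by -1.81 in KO cells without KO replicate 1.

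At the 5′ end, Hoxa11 fell in WT cells, by 2.00 ± 0.20 on the log2 scale (adjusted p = 0.00211), under each of 18 alternatives. Hoxa13 fell with it (-1.65 ± 0.34, adjusted p = 0.0194), a call lost without any of the 4 WT libraries in turn (adjusted p from 0.108 to 0.123). Hoxa10 fell in WT cells (-0.99 ± 0.17, adjusted p = 0.00566), and without WT replicate 1 or WT starved replicate 1 it did not pass (adjusted p = 0.0556 and 0.0598). In KO cells Hoxa10 changed by -0.71 ± 0.19 (adjusted p = 0.0430). Hoxa9 differed from its neighbours in WT cells, where it was at 21.5 and 21.7 CPM in rich and 19.8 and 20.7 CPM in starved libraries (-0.09 ± 0.19, adjusted p = 0.758). In KO cells it fell, by 0.79 ± 0.21 on the log2 scale (adjusted p = 0.0391). The difference between the responses of Hoxa9 was -0.70 ± 0.28 (adjusted p = 0.146), and -0.94 (adjusted p = 0.000884) without KO replicate 2. Both KO calls were lost in turn without any of the WT or the KO starved libraries. They were also lost with limma-voom (adjusted p = 0.0593 for Hoxa9 and 0.0702 for Hoxa10) and with a replicate block (adjusted p = 0.0550 and 0.0659), and in a fit of the KO libraries alone (adjusted p = 0.225 and 0.219). That of Hoxa10 was lost as well without the filter (adjusted p = 0.0528) and with the transcript of lowest total (adjusted p = 0.0509).

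Hoxd13 stood at 12.5 and 11.9 CPM in WT rich and 7.41 and 9.11 CPM in WT starved libraries (-0.56 ± 0.22, adjusted p = 0.115). Without KO rich replicates 1 and 2 in turn it changed by -0.55 and -0.56. It was called lower with limma-voom with library quality weights and in a fit of the WT libraries alone (adjusted p = 0.00127 and 0.00121). It was not called with DESeq2, limma-voom without weights or a replicate block. None of the 7 tested Hoxb and Hoxc genes was called for starvation in KO cells by edgeR, and 2 of them, Hoxb4 and Hoxc6, had an unadjusted p under 0.05. Hoxc6 changed by -1.21 ± 0.30 (adjusted p = 0.0534), and it was called lower by DESeq2 and limma-voom (adjusted p = 0.0355 and 0.0159), with total-count scaling (adjusted p = 0.0480) and without KO replicate 2 (adjusted p = 0.0187). Hoxb4 changed by -1.04 ± 0.40 (adjusted p = 0.138). Without KO replicate 1, Hoxb2, Hoxb4 and Hoxc6 were called lower (adjusted p = 0.0438, 0.000126 and 0.0182). Hoxb3 changed by -0.33 ± 0.25 (adjusted p = 0.412).

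**Figure D4:**
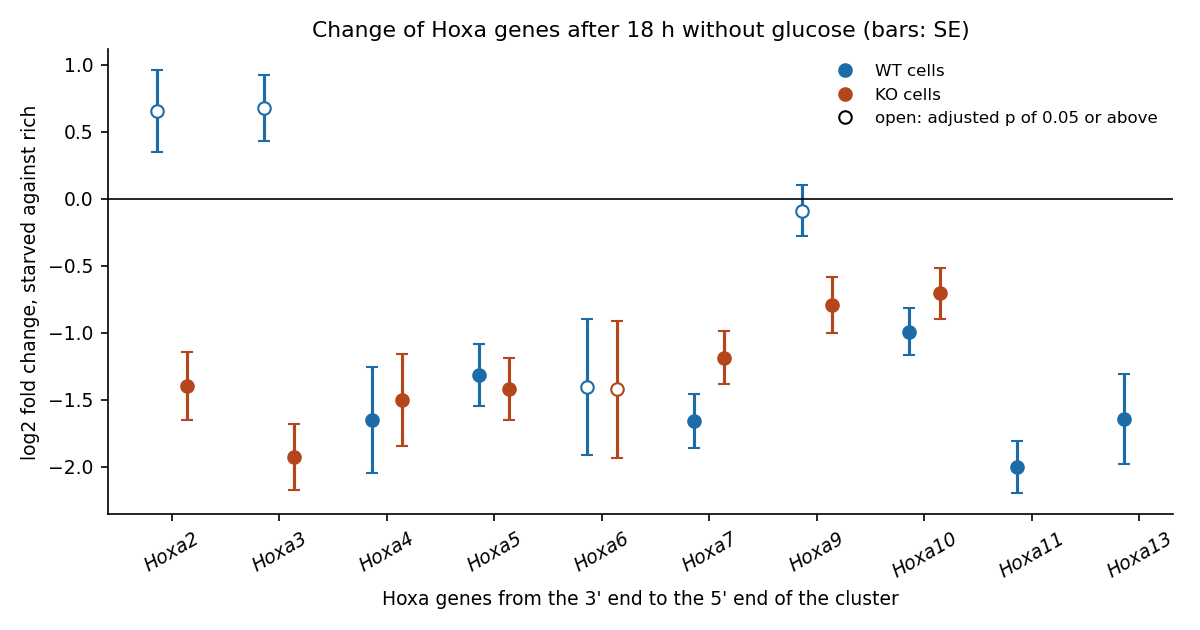
Log2 fold change (± SE) of Hoxa2 to Hoxa13 after 18 h without glucose in WT and KO cells, in the order of the cluster; open points did not pass the adjusted p threshold, and genes with 0 counts in KO cells have no KO point. Hoxa2 and Hoxa3 lie above 0 in WT and below 0 in KO cells, and Hoxa4 to Hoxa7 lie below 0 in both.

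The responses differed between the genotypes for Hoxa2 and Hoxa3, 2 of the 9 members with counts in both genotypes. Both responses were lower in the KO, beside 13.3% of all genes called, 7.42% higher and 5.91% lower. The other 10 tested members were at or near 0 in 1 genotype, and a difference in response could not be judged for them. Hoxa3 went from 4.51 and 3.46 to 7.29 and 5.44 CPM in WT cells (0.68 ± 0.25, adjusted p = 0.0724). Without KO rich replicates 1 and 2 in turn this change was 0.69 and 0.68. It was called with limma-voom with library quality weights, a replicate block and a fit of the WT libraries alone (adjusted p = 0.00619, 0.0426 and 0.00463). It was not called with DESeq2 or limma-voom without weights. In KO cells Hoxa3 fell from 21.3 and 18.4 to 5.74 and 4.65 CPM (-1.93 ± 0.25, adjusted p = 0.00394). The difference between the WT and KO responses of Hoxa3 was -2.61 ± 0.35 (adjusted p = 0.00498) and held under each of 17 alternatives. Hoxa2 went from 0.836 and 1.14 to 1.51 and 1.63 CPM in WT cells (0.65 ± 0.31, adjusted p = 0.145) and from 15.9 and 11.1 to 5.45 and 4.65 CPM in KO cells (-1.40 ± 0.25, adjusted p = 0.0119), a difference of -2.05 ± 0.40 (adjusted p = 0.0180). The fall of Hoxa3 in KO cells did not pass without KO starved replicate 2 (adjusted p = 0.0603), and that of Hoxa2 without KO starved replicate 1 or 2 (adjusted p = 0.0893 and 0.118). The difference for Hoxa2 was lost without any WT library or any KO starved library in turn (adjusted p from 0.0682 to 0.0993), so that 1 gene was left. Without KO replicate 2, 5 genes were called, Hoxa7 and Hoxa9 among them.

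The counts of starvation calls moved when a library was left out, which leaves 1 library in its group. In each left-out fit named here, the share of all genes called moved in the same direction. Without WT replicates 1 and 2 in turn, the 7 calls in WT cells became 2 and 4, and without WT starved replicates 1 and 2 they became 4 and 3. The 8 calls in KO cells became 2 and 0 without KO starved replicates 1 and 2, 5 without either WT replicate, and 12 without KO replicate 1. A fit of the 4 KO libraries alone (edgeR) called 0 members, and 0 of all 12693 genes tested. In that fit 10 members had an unadjusted p under 0.05. The same kind of fit of the 4 WT libraries alone called 10 members for WT starvation, the 7 among them. It called 72.1% of all 12952 genes tested. Over all 8 libraries, DESeq2 called 9 members and limma-voom 7. Without KO starved replicate 2, 9 members had an unadjusted p under 0.05.

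The partners and regulators of Hox genes were listed beside them. Of 9 cofactors of the TALE homeodomain class, which bind DNA together with HOX proteins, 3 were higher and 4 lower in KO than WT cells in rich medium, beside 44% of all genes called, 23.4% higher and 20.6% lower. After starvation of WT cells 6 of the 9 fell, beside 18% of all genes. Meis2 stood at 18.2 and 17.9 CPM in WT rich and 54.5 and 35.8 CPM in KO rich libraries (1.32 ± 0.21, adjusted p = 0.00264). Meis3 was lower in the KO (-1.29 ± 0.17, adjusted p = 0.000962). Pknox2 stood at 51.8 and 55.5 CPM in WT rich and 0.246 and 0.186 CPM in KO rich libraries (-8.01 ± 0.28, adjusted p = 1.31e-05). Members of this class thus went both ways between the genotypes.

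Of 17 genes of retinoic acid signalling, which turns on 3′ Hox genes, 11 were tested, and 2 were higher and 5 lower in the KO in rich medium, beside 23.4% and 20.6% of all genes. Crabp1 and Crabp2, which bind retinoic acid in the cytoplasm, stood at 20.8 ± 0.826 and 57.7 ± 2.01 CPM (SD, n = 2) in WT rich cells and at 0.285 ± 0.0556 and 0.216 ± 0.0428 CPM in KO rich cells (adjusted p = 4.12e-05 and 7.86e-06). Rdh10, which makes the retinaldehyde precursor, stood at 5.85 and 5.35 CPM in WT and 81.8 and 65.4 CPM in KO libraries (3.71 ± 0.21, adjusted p = 2.59e-05). Genes of the same pathway were thus higher in either genotype.

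Of 11 genes of Polycomb complex PRC2, 2 were higher and 2 lower in the KO in rich medium, and in WT cells 1 rose and 5 fell after starvation, beside 14.8% and 18% of all genes. Jarid2, a subunit that helps recruit the complex, fell in WT and KO cells (-1.86 ± 0.23 and -1.34 ± 0.23, adjusted p = 0.00149 and 0.0100). Of 18 PRC1 genes, 2 were higher and 2 lower in the KO in rich medium, among them the CpG-island binding subunit Kdm2b (-0.64 ± 0.18, adjusted p = 0.0256). Of 12 genes of the lysine 4 methyltransferase complexes and of the demethylases that remove the Polycomb mark, 1 was higher and 2 were lower in the KO in rich medium. Wdr5, a core subunit of those complexes, was lower (-0.78 ± 0.18, adjusted p = 0.0110). In rich medium the shares of these 3 lists called between the genotypes are below the 44% of all genes called, and the lists went both ways.

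Of 16 noncoding RNAs of the Hox clusters, 8 were in the table and 1 reached 1 CPM in a group. Hoxa11as, transcribed from the strand opposite Hoxa11, stood at 31.9 and 34.6 CPM in WT rich and 9.33 and 10.8 CPM in WT starved libraries (-1.72 ± 0.20, adjusted p = 0.00328), with 0 counts in KO cells (at least 331-fold higher in WT in rich medium). It moved as Hoxa11 did, and because strand is not given for these counts, reads of the overlapping pair cannot be told apart. Hotair, of the Hoxc cluster, had 0 counts in WT cells and at most 0.492 CPM in a KO library.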

How the data were processed

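RNA-seq of 8 libraries was used, in 4 groups of 2 taken from the sample titles. Chromatin libraries (4) were not used here. The deposited values are whole-number counts per RefSeq transcript, and the submitters' processing notes name TopHat2 2.0.9, bedtools and build mm9. Strandedness, multiply mapping reads and the exons counted: not given in the sources used here. In each library 734 to 912 genes held exactly 2 counts and 192 to 225 exactly 1, so counts may not be independent reads and counting intervals are likely too narrow.

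For each symbol the transcript of highest total count was kept, and 3 Hox symbols had several. Genes were filtered with filterByExpr, scaled by TMM and fitted with a mean per group in edgeR 4.0.16 (R 4.3.3) with quasi-likelihood tests, biological coefficient of variation 18.5%. The test was also run on simulated counts in which few genes changed, unlike these data. Its outcome is not reported here and no conclusion is drawn from it. Levels are CPM computed here. Counts over members cover all of them, and some items are not reported here by name or drawn. Transcript lengths were not used here. All groups share 1 estimate of the spread: leaving out either KO rich library raised the share of all genes called for WT starvation from 32.9% to 68.4% and 68.5%. Replicate ratios used CPM plus 0.5. Members, gene lists and tests were chosen with earlier results of these data known. Named members are those called in any comparison and those of highest level per cluster. Others are named as silent or low, Hotair, Evx1, Evx2, Thy1 and the leading markers being chosen after their values were seen; per further list at most the 3 with the smallest p are named. Alternatives were DESeq2 1.42.0, RLE size factors, scaling by total counts, omitting the filter, a stricter filter (2 or more libraries at 5 CPM), limma-voom (limma 3.58.1) without and with library quality weights, a replicate block, only the libraries compared, the transcript with the lowest total, and each library left out in turn.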

Additional observations from a re-analysis of the deposited data

Results flagged for a closer look

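The starvation responses of 2 of 19 tested Hox genes differed between the genotypes, beside 13.3% of all genes called. The difference itself was tested (edgeR, adjusted over all genes). The response of Hoxa2 was lower in KO than in WT cells by -2.05 on the log2 scale (adjusted p = 0.0180), and that of Hoxa3 by -2.61 (adjusted p = 0.00498). In each case the KO libraries fell from a rich level several times that of the WT libraries, and the 2 WT starved libraries lay above the 2 WT rich libraries. The KO rich pair, whose replicates lie farthest apart over all genes, enters both differences. Over 17 alternatives the Hoxa2 difference ran from -2.31 to -1.79, and its call was lost under 6 of them. Groups of 2 libraries were too small to look for single outlying samples.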

How the results depend on the processing

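No called fold change of a Hox gene changed its sign under any alternative run. Calls moved by more than 1.5 times in these cases. In KO starvation, 8 calls became 3 with limma-voom with quality weights and 0 in a fit of only the libraries compared. Over all genes, the 18.2% called became 9.48% and 0% in these fits. In rich medium, the genotype comparison went from 16 to 10 calls under the stricter filter, which tests fewer members. Leaving out 1 library at a time gave 2 to 10 calls for WT starvation (7 with all), 0 to 12 for KO starvation, 14 to 17 for each genotype comparison (16 with all) and 1 to 5 for the difference between responses (2 with all). The number of members detected was 17 to 18 over the left-out libraries, 19 at a level of 0.5 CPM and 13 at 5 CPM. Scaling by total counts moved the median log2 difference of all genes between the genotypes after starvation from -0.02 to -0.14, and the call of Hoxa5 (0.66, adjusted p = 0.0572) in rich medium was then lost. Same-numbered replicates shared little beyond the number (correlations of their deviations between groups -0.03 to 0.15), and a replicate block gave 8, 6, 15, 15 and 2 calls for WT starvation, KO starvation, the genotype in rich medium, the genotype after starvation and the difference between responses. Genes at 1 CPM or less are limited by depth, at which 3 counts are 0.104 to 0.369 CPM.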

Other observations

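Pitx1, a transcription factor of the hindlimb, followed the genotype as the 5′ Hoxa genes did. It stood at 45.3 and 51.5 CPM in the WT rich libraries and at 26.3 and 27.7 CPM in the WT starved libraries (-0.84 ± 0.21, adjusted p = 0.0246). In KO cells it had 0 counts in rich medium and 1 count after starvation (at least 483-fold higher in WT cells in rich medium). The other hindlimb factor listed, Tbx4, and the forelimb factor Tbx5 were under 1 CPM in every group, at most 0.154 and 0.224 CPM on average.

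Of 12 genes that flank the Hox clusters, 7 were tested, and 2 were called in the genotype comparison in rich medium, both higher in the KO, beside 44% of all genes called. Evx1, which adjoins Hoxa13, had 0 counts in all 8 libraries, and Evx2, which adjoins Hoxd13, reached at most 0.0996 CPM in a group. Skap2, beyond the 3′ end of Hoxa, stood at 45.6 and 47.3 CPM in WT rich and 55.1 and 45.2 CPM in KO rich libraries (0.11 ± 0.15, adjusted p = 0.588), where Hoxa2 and Hoxa3 differed. It fell after starvation of WT cells (-1.15 ± 0.15, adjusted p = 0.00191). Hibadh, beyond Evx1, was higher in the KO (0.70 ± 0.14, adjusted p = 0.00569), where Hoxa11 and Hoxa13 were at 0.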
